A study of Caenorhabditis elegans with 4 samples.

Results

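CBP-1 peaks on chromosome IV of Caenorhabditis elegans embryos are described here. A peak is a region that the authors called as enriched after immunoprecipitation of CBP-1. All peaks that the deposited lists place on chromosome IV were taken. They numbered 1013 of 6300 in the series-wide list (16.1%), 511 of 3122 in the replicate 1 list (16.4%) and 328 of 2004 in the replicate 2 list (16.4%). The study sequenced chromatin of wild-type N2 embryos of mixed stage, from a population of males and hermaphrodites kept at 20 °C, after fixation in 2% formaldehyde for 30 minutes. An affinity-purified rabbit polyclonal antibody against CBP-1 gave 2 ChIP samples, and 2 input samples were kept without immunoprecipitation. The inputs were not analysed here, and the labels do not say whether the replicates came from separate cultures. Whole embryos hold many cell types, so a peak can come from any of them. Read counts are not part of the lists. The depth behind a peak is thus unknown, and the intervals given below cover counting of peaks only. The Poisson and Wilson intervals take peaks as independent, although peaks cluster.

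CBP-1 belongs to the CBP/p300 proteins, enzymes that place acetyl groups on histones and act as co-activators at promoters and enhancers. The autosomes of C. elegans have a central domain and 2 arms. The arms recombine more, carry more repeats and more of the histone methylation of silent chromatin, and lie near the nuclear envelope, while the centres hold more of the conserved and widely expressed genes. Chromosome IV is also known for carrying most of the genes of piRNAs, small RNAs that guard the germ line, in broad clusters. No gene annotation of WormBase WS220, the build of the peak coordinates, was used here, so peaks are given by position without gene names.

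Chromosome IV peaks were of ordinary width and strength for these lists. In the series-wide list they had a median width of 261 bp (quartiles 196 and 380 bp) and a median score of 8.96 (quartiles 5.36 and 19.1), against 258 bp and 8.77 on the other nuclear chromosomes. The score is the authors' own, on an unknown scale, and serves only to rank peaks within a list. In replicate 1 the chromosome IV peaks had a median width of 422 bp, and in replicate 2 of 176 bp. Replicate 2 peaks elsewhere in the nuclear genome were a little narrower and weaker, at 156 bp and a median score of 82.5 against 94.3 on chromosome IV. No test was run on these differences in width and score between chromosomes. Wide peaks were the stronger ones: over the 1013 series-wide peaks, Spearman's rho between width and score was 0.663, a description of peaks of 1 list that share a caller and its input reads. The 1013 peaks together covered 348933 bp, or 1.99% of the chromosome.

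The chromosome was divided into 3 parts of 5.83 Mb each, the left arm, the centre and the right arm. Its length was taken as the furthest peak end, 17493824. The left arm held 366 series-wide peaks, the centre 362 and the right arm 285. These are densities of 62.8 peaks per Mb (exact Poisson 95% interval 56.5 to 69.5), 62.1 (55.8 to 68.8) and 48.9 (43.4 to 54.9). The left arm had about the density of the centre, and the right arm was the sparser part. Replicate 1 had the same order between centre and right arm, with 177 peaks in the left arm, 184 in the centre and 150 in the right arm. Replicate 2 did not: it held 103, 111 and 114 peaks, with the highest count in the right arm.

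The excess of the centre over both arms was small on this chromosome. Density was 62.1 peaks per Mb in the centre and 55.8 in the arms, a ratio of 1.11 with a 95% interval of 0.931 to 1.33 (p = 0.237, adjusted p = 0.373, quasi-Poisson model of counts in 250 kb bins, n = 72 bins after division at the part edges). The model counts peaks per bin and widens its intervals for the clustering of peaks, and all p-values were adjusted over 11 tests by the Benjamini-Hochberg method. With the middle 50% of the length as the centre, the ratio was 1.22 (unadjusted p = 0.0329, n = 72 bins). The ratio of left arm to right arm was 1.28 (1.03 to 1.60), whose p of 0.0274 did not pass after adjustment (quasi-Poisson model, adjusted p = 0.151, n = 48 bins). That ratio was 1.18 in replicate 1 alone, 0.904 in replicate 2 alone and 1.03 among the peaks of both, so the lists did not share a direction.

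**Figure D1:**
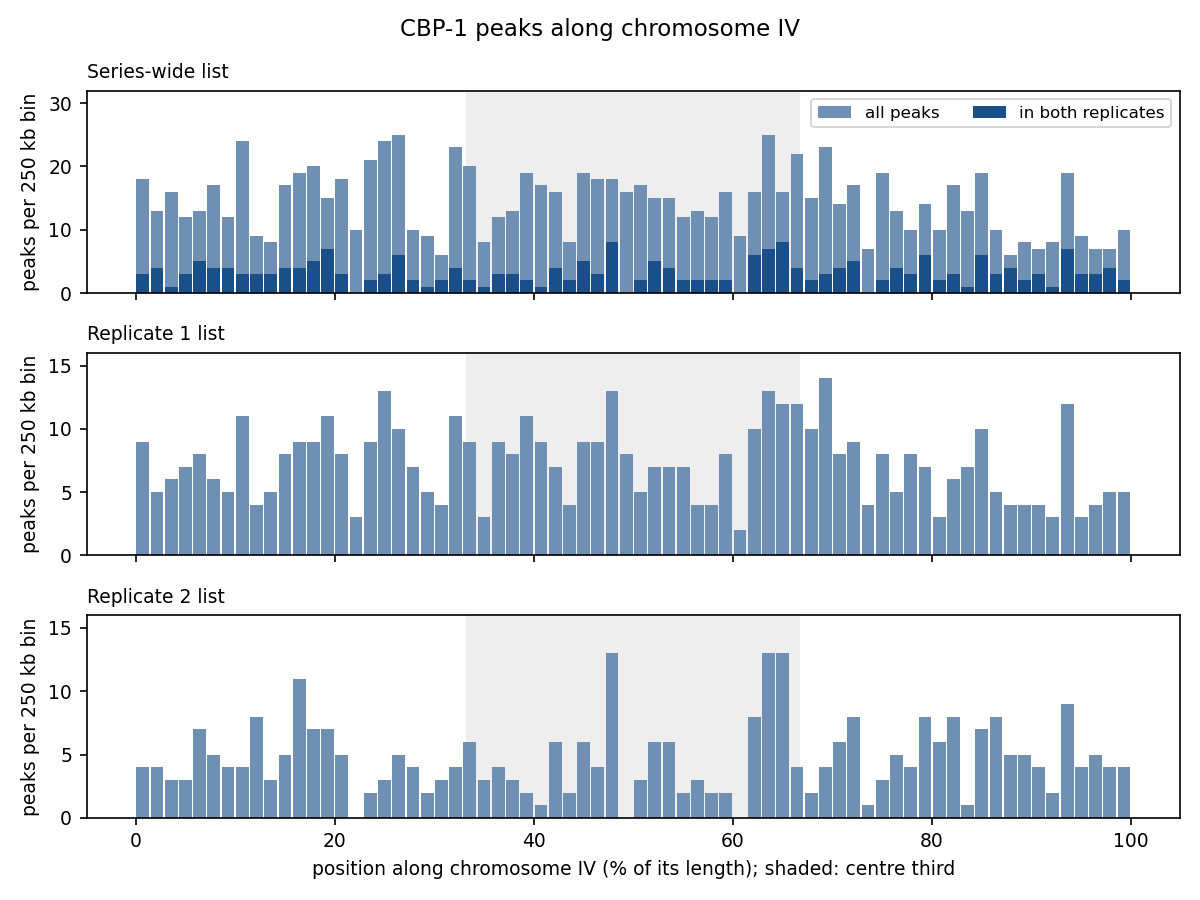
Peaks per 250 kb bin (vertical axis) along chromosome IV (horizontal axis, percent of its length) in the series-wide, replicate 1 and replicate 2 lists, with the centre shaded and, in the top panel, the peaks found in both replicates in dark blue. Full bins of the series-wide list range from 6 to 25 peaks, and the low bins gather towards the right end.

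Most of the shortfall of the right arm lay in its outer part. In sixths of the length from left to right, the series-wide list held 58.6, 66.9, 60.7, 63.5, 56.6 and 41.2 peaks per Mb. The last of these, with 120 peaks, had an exact Poisson interval of 34.1 to 49.2, below the intervals of the first 4 sixths. Replicate 1 also had its lowest density there, at 22.6 per Mb against 27.1 to 33.6 in the other sixths. In replicate 2 the outer right sixth held 19.9 per Mb, within the range of 15.8 to 20.9 over the rest. The boundary at 15 Mb was chosen after the bins were seen. Past it the series-wide density was 36.5 per Mb against 61.5 before it, and replicate 1 had 19.6 against 30.8. Replicate 2 had 20.05 against 18.5 per Mb, so the drop was not in that list. The peaks past 15 Mb included 32 of 91 found in both replicates (35.2%), against 195 of 922 (21.1%) before it.

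On the other autosomes both arms were sparser than the centre in the series-wide list. Left and right arm had 74.2 and 66.1 series-wide peaks per Mb on chromosome I against 86.6 in its centre, 42.6 and 64.8 against 79.9 on chromosome II, 64.0 and 74.4 against 82.1 on chromosome III, and 44.2 and 32.5 against 61.7 on chromosome V. The ratio of centre to arms in that list was 1.23 on I, 1.49 on II, 1.19 on III (95% interval 0.977 to 1.44) and 1.61 on V, against 1.11 on IV. The small value of chromosome IV was thus near that of III. The ratio of left arm to centre was 1.01 on chromosome IV (95% interval 0.835 to 1.22). It was 0.857 on I, 0.533 on II, 0.780 on III and 0.716 on V. On X, which is not an autosome, it was 1.05. In the series-wide list chromosome IV thus differed from the other autosomes in its left arm by the point estimates. Its right arm, at 0.787 of its centre (0.643 to 0.963), lay within the range of 0.528 to 0.907 of the other autosomes. Replicate 1 alone likewise had both arms sparser than the centre on those 4 chromosomes, with ratios of centre to arms from 1.35 on III to 1.65 on V, against 1.13 on IV. In replicate 2 alone, the ratio of centre to arms was 0.996 on I, 0.980 on II, 1.03 on III, 1.02 on IV and 1.26 on V. In that list the left arm of I was 1.06 times as dense as its centre, that of III 0.976 times and that of IV 0.928 times. The left arm of IV thus did not stand out there. In the same list the right arm of II was 1.31 times as dense as its centre. Among the peaks of both replicates, the right arm of II was 1.125 times as dense as its centre.

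The difference between chromosome IV and the other autosomes was tested in 1 model over all autosomal bins, in which the other 4 shared 1 centre-to-arm ratio. The centre-to-arm ratio of chromosome IV was 0.817 times that of the other 4 autosomes (0.652 to 1.02, p = 0.0792, adjusted p = 0.291, quasi-Poisson interaction, n = 343 bins), which did not pass the threshold. Split by arm, a test chosen after the data were seen, the left-arm-to-centre ratio was 1.40 times that of the other autosomes (1.08 to 1.81, p = 0.0106, adjusted p = 0.117, n = 343 bins). The right-arm-to-centre ratio was 1.05 times theirs (0.805 to 1.38, adjusted p = 0.769, n = 343 bins, same model). After adjustment none of these passed. The left-arm value was 1.43 in replicate 1 alone, 1.05 in replicate 2 alone (unadjusted p = 0.813) and 1.36 among the peaks of both (unadjusted p = 0.154, n = 343 bins in each fit). Chromosome IV as a whole had 57.9 peaks per Mb (54.4 to 61.6), 0.925 times the density of the other autosomes (0.820 to 1.04, adjusted p = 0.373, n = 343 bins).

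**Figure D2:**
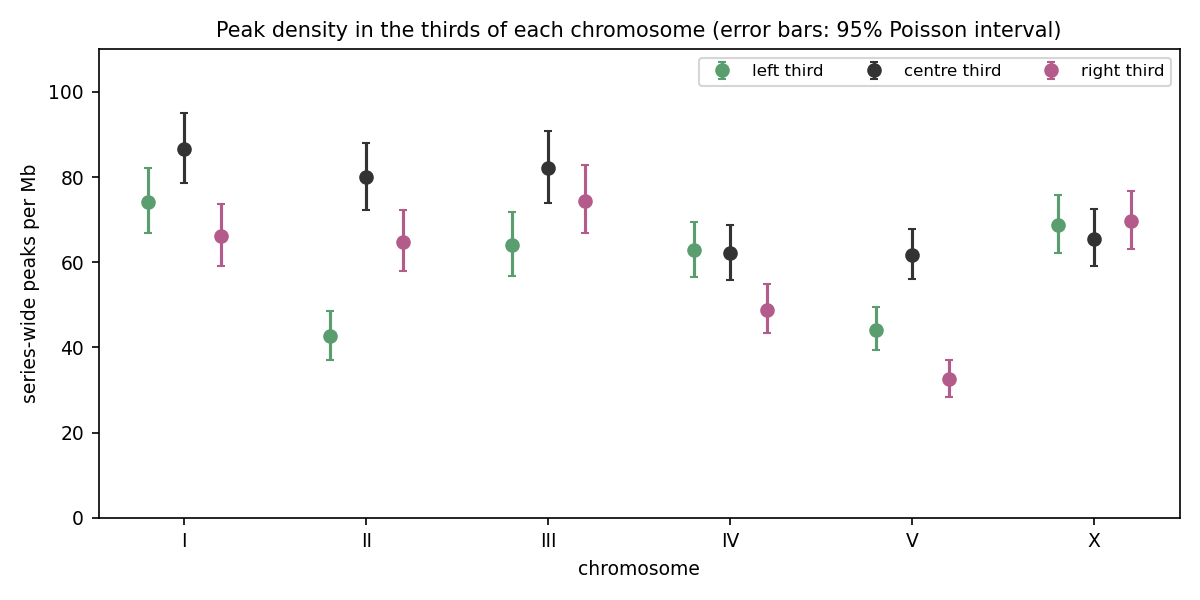
Series-wide peaks per Mb (vertical axis) in the left arm, centre and right arm of each chromosome (horizontal axis), with exact Poisson 95% intervals as error bars. On chromosome IV the left arm (62.8) and the centre (62.1) stand level above the right arm (48.9), while on the other 4 autosomes the centre is the highest point.

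Replicate support on chromosome IV was close to that of the whole nuclear genome. Of the 1013 series-wide peaks, 227 or 22.4% (Wilson 95% interval 19.9 to 25.1) overlapped both replicate lists by at least 1 bp, against a background of 21.8% of all nuclear series-wide peaks. A further 326 (32.2%, background 33.1%) overlapped 1 list and 460 (45.4%, background 45.2%) overlapped neither. Of those in 1 list, 291 were in replicate 1 only and 35 in replicate 2 only. The odds of being in both were 1.04 times those on the other chromosomes (0.875 to 1.25, adjusted p = 0.769, quasi-binomial model on bins). In the replicate lists, 224 of 511 replicate 1 peaks overlapped replicate 2 (43.8%, background 44.0%) and 272 of 328 replicate 2 peaks overlapped replicate 1 (82.9%, interval 78.5 to 86.6, background 79.7%). The series-wide list took in 504 of the replicate 1 peaks (98.6%, background 99.1%) and 308 of the replicate 2 peaks (93.9%, background 93.3%).

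Peaks found in both replicates were near equal in number over the 3 parts, and the lower count of the right arm lay among the peaks with less support. The 227 peaks in both lists were split 76, 77 and 74 over left arm, centre and right arm, or 13.0, 13.2 and 12.7 per Mb. Those in 1 list were split 118, 116 and 92, and those in neither 172, 169 and 119, or 29.5, 29.0 and 20.4 per Mb. By score, the lower count was not confined to weak peaks. Above the median score the ratio of left to right arm was 1.31 (1.02 to 1.69, unadjusted p = 0.0361, quasi-Poisson model, n = 48 bins). Only 262 series-wide peaks overlapped replicate 2, a list without a lower count in the right arm, and the 227 are among them. The share in both was 20.8% in the left arm (16.9 to 25.2), 21.3% in the centre (17.4 to 25.8) and 26.0% in the right arm (21.2 to 31.4). The intervals of these shares overlap. The odds in the centre were 0.902 times those in the arms (0.633 to 1.29, adjusted p = 0.769), and those in the left arm 0.747 times those in the right arm (0.50 to 1.12, adjusted p = 0.373, quasi-binomial models). The latter test was chosen after the data were seen.

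**Figure D3:**
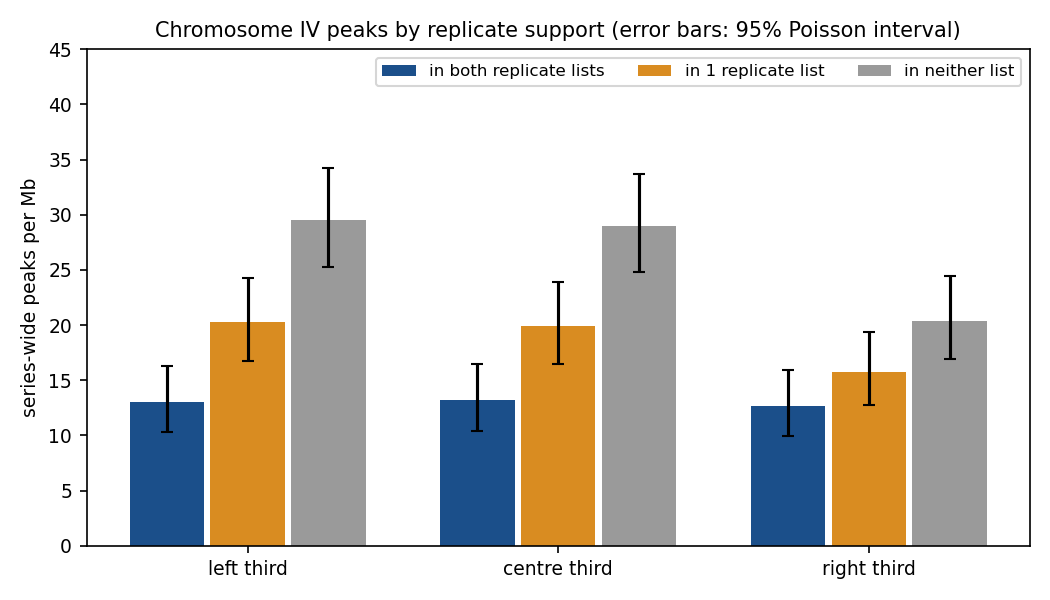
Series-wide peaks per Mb (vertical axis) in the left arm, centre and right arm of chromosome IV, by whether they overlap both replicate lists, 1 or neither, with exact Poisson 95% intervals as error bars. The dark blue bars of peaks in both lists are level (13.0, 13.2 and 12.7), while the grey bars of peaks in neither fall to 20.4 in the right arm.

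Score ordered this support steeply. The chromosome IV peaks were ranked by series-wide score into 5 classes of 202 or 203. In the strongest class, with scores from 22.05 to 202.2, 159 of 203 peaks were in both lists (78.3%, 72.2 to 83.4) and 202 in at least 1. The share in both was 25.6% in the second class, 5.45% in the next, 1.97% in the one after and 0.495% in the weakest, with scores of 4.90 and below. In the weakest class, 183 of 202 were in neither list. The series-wide list was not independent of the replicates, since the series holds no further ChIP samples, so this is a description. Peaks in both lists had a median score of 30.7 and width of 421 bp, those in 1 list 12.4 and 327 bp, and those in neither 5.36 and 198 bp. Wide peaks have more room for an overlap of 1 bp, and no matching for width was made.

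No difference in score or width between centre and arms passed the test. Median scores were 9.29 in the left arm, 8.81 in the centre and 8.96 in the right arm, with median widths of 256.5, 267 and 266 bp. On the log2 scale the centre exceeded the arms by 0.01 in score (-0.18 to 0.20, adjusted p = 0.925) and by 0.08 in width (-0.04 to 0.20, adjusted p = 0.373), by a linear model with errors clustered by bin (n = 1013 peaks). The centre had the greater covered length in the series-wide list, 135074 bp or 2.32% of its sequence, against 1.96% in the left arm and 1.70% in the right arm. In replicate 1 the shares were 1.88% in the centre, 1.50% in the left arm and 1.32% in the right arm. Replicate 2 did not share this, with 0.481% in the centre, 0.426% in the left arm and 0.494% in the right arm. Covered length was not tested. Among the 5 score classes, the strongest was split 69, 80 and 54 over left arm, centre and right arm, and the weakest 72, 75 and 55.

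The peaks of highest series-wide score lay in the arms, although the strongest of the 5 classes had more members in the centre than in either arm. By replicate 1 score, peaks of the centre stood near the top beside those of the arms. The highest replicate 1 score on the chromosome, 3122.9, fell on 2828416 to 2830634 in the left arm, at rank 292 of the series-wide list. The centre peak at 11070822 and the right arm peak at 14032437 both had 3100. Next among shared peaks came 2801 and 2255 in the right arm, 1708 in the centre and 1608 in the left arm. After these, centre peaks had 1590, 1530 and 1490. The highest overlapping replicate 2 scores were 1889 in the right arm, 1806 in the left arm and 1403 in the centre. Of the 10 series-wide peaks of highest score that both replicates shared, 7 were in the left arm, 3 in the right arm and none in the centre. The first lay close to the right end at 17277483 to 17279191, with a series-wide score of 202.2, a replicate 1 score of 2801 and a highest replicate 2 score of 857.5 over the 2 peaks that overlapped it. The second was a narrow peak of 399 bp near the left end, 654698 to 655096, with scores of 193.5, 1608 and 727.5 in the same order. The third covered 4749669 to 4750191 in the left arm, with scores of 173.1, 1307 and 543.3. All 3 stood high in every list, at ranks 24, 74 and 115 of replicate 1 and 51, 66 and 99 of replicate 2 over the nuclear genome.

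The other 7 had series-wide scores from 103.1 to 144.5. Of these, 5 lay in the left arm, at 1659060 to 1659416 (score 144.5), 1094035 to 1094472 (131.3), 4390460 to 4390837 (126.65), 2388789 to 2389336 (113.2) and 2219123 to 2219858 (106.9). The 2 in the right arm were 14032437 to 14034862 (138.4) and 13240266 to 13240760 (103.1). The peak at 14032437 was at the score of 3100 in replicate 1 and at rank 11 in replicate 2, while the one at 13240266 was at rank 426 in replicate 1 and 249 in replicate 2. The peak at 4390460 fell furthest back in replicate 2, at rank 271. Apart from the peaks of 1709 and 2426 bp at 17277483 and 14032437, these 10 were 357 to 736 bp wide.

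**Figure D4:**
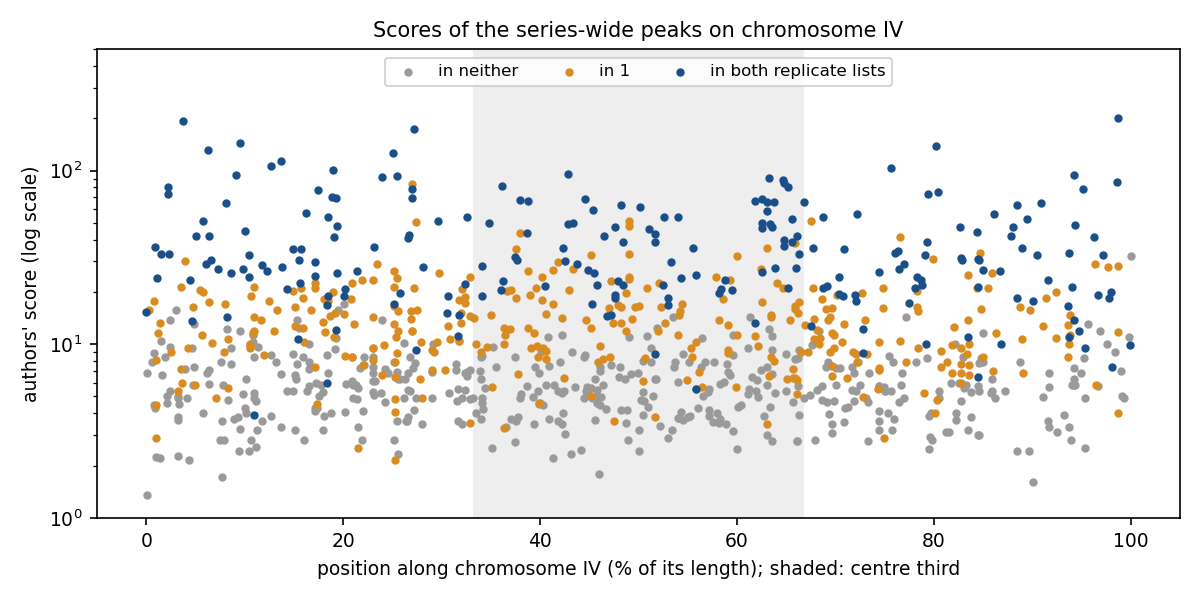
Authors' score on a log scale (vertical axis) of the 1013 series-wide peaks along chromosome IV (horizontal axis, percent of its length), coloured by replicate support, with the centre shaded. The points above 100 all lie outside the shaded centre, and the grey points of peaks in neither list lie mostly below 10.

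Across the 224 replicate 1 peaks on chromosome IV that overlapped replicate 2, the scores of the replicates were related, with Spearman's rho 0.604, against 0.629 over the 1148 such peaks of the other chromosomes. These are descriptions across peaks of the same libraries. Each replicate 1 peak was paired with its highest-scoring replicate 2 partner. Shared replicate 1 peaks had a median score of 310.9 and the 287 unshared ones 107.3. In replicate 2 the medians were 115.9 for the 272 shared and 57.1 for the 56 unshared peaks.

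**Figure D5:**
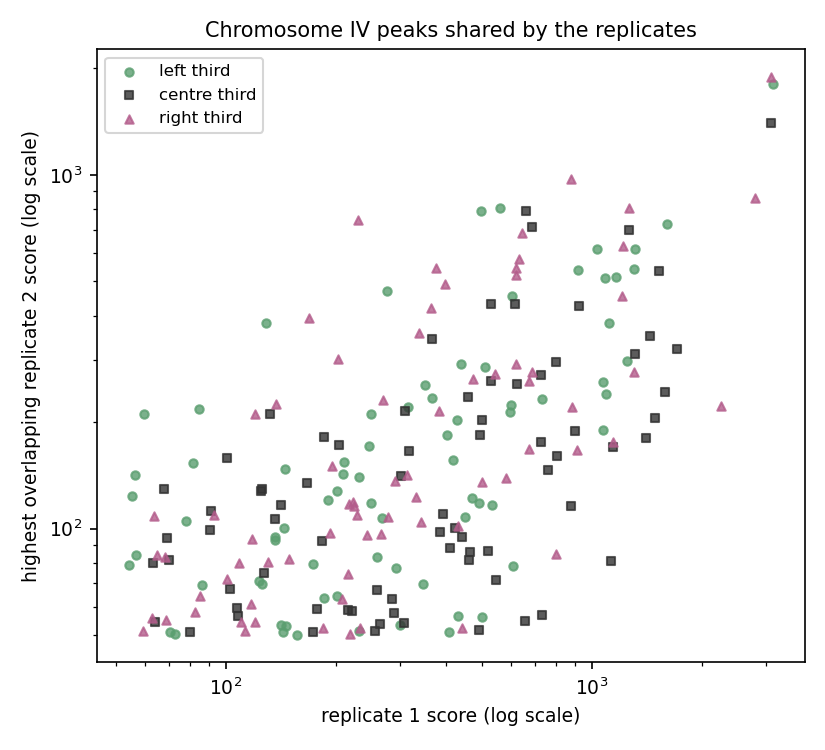
Score of each of the 224 shared replicate 1 peaks on chromosome IV (horizontal axis, log scale) against its best overlapping replicate 2 score (vertical axis, log scale), by part of the chromosome. The scores rise together (Spearman's rho 0.604) with wide scatter, and peaks of all 3 parts are mixed.

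The replicate 2 peaks that replicate 1 lacked lay most often in the right arm. Of the 56, 17 were in the left arm, 11 in the centre and 28 in the right arm. The share of replicate 2 peaks found in replicate 1 was 83.5% in the left arm (Wilson interval 75.1 to 89.4), 90.1% in the centre (83.1 to 94.4) and 75.4% in the right arm (66.8 to 82.4). Over all nuclear replicate 2 peaks it was 79.7%, which lies within the intervals of both arms and below that of the centre. The intervals of centre and right arm do not overlap, but the difference was not tested on bins. These peaks were narrow, with a median of 109 bp and none wider than 164 bp, and 38 of them overlapped the series-wide list. The 18 found in no other list had a median score of 56.8, near the lowest score of 50.1, and a highest score of 89.35.

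The few broad peaks were spread over all 3 parts of the chromosome. There were 7 series-wide peaks over 2000 bp among the 1013, against 36 among the 5276 of the other nuclear chromosomes. The widest on chromosome IV, 5077 bp at 11070822 to 11075898 in the centre, had a score of 91.05. Replicate 1 held it as 1 peak of 5135 bp at the score of 3100, a rank of 3 that it shared with the peak at 14032437. Exactly 3100 was also the highest score of the replicate 2 list over the nuclear genome. What this repeated value stands for is not stated, so ranks at it may not order peaks. Replicate 2 held it as 5 peaks that covered 3409 bp of it, with a highest score of 1403 (rank 22). The third widest, 3028 bp at 12316266 to 12319293 in the right arm, had a score of 24.4 with 909.2 in replicate 1 and 166.5 in replicate 2.

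The second widest peak was absent from replicate 2. It spanned 3476 bp in the middle of the chromosome, 8578243 to 8581718, with a score of 47.9 and a replicate 1 score of 699.9. It closed a run of 5 series-wide peaks less than 1 kb apart, 8572588 to 8581718, which covered 8548 bp of a span of 9131 bp. Replicate 1 held the run as 4 peaks, whose summed widths of 9264 bp include bases beyond its ends, and replicate 2 had no peak there. The series-wide scores of the 5 peaks ran from 23.6 to 51.3. Most peaks of such scores were in both lists, as the strongest class above shows. This run and the following one were picked out after their values were seen. At 4416563 to 4419389 in the left arm, 5 weak series-wide peaks with scores from 2.14 to 7.90 lay under a single replicate 1 peak of 5683 bp, the widest of that list on the chromosome, and replicate 2 again had none. The input level at these places was not analysed here.

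Peaks often stood in close company. Of the 1012 gaps between neighbouring series-wide peaks, 169 (16.7%) were under 1 kb. That share lay within the range of the other chromosomes, with 14.3% on I, 19.8% on II, 15.8% on III, 19.4% on V and 15.6% on X. Merging across the 169 gaps left 844 regions. Single peaks made up 722 of these regions, pairs 88, and 34 held 3 or more. The largest number was 6 peaks, in a span of 3792 bp at 14477272 to 14481063. The share of peaks in such runs was 27.9% in the left arm, 29.8% in the centre and 28.4% in the right arm. The median gap was 9020 bp, against 7477 bp on chromosome II and 8922 bp on chromosome V, the autosomes nearest to chromosome IV in peaks per Mb.

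Long stretches without a peak made up 32.7% of the chromosome. There were 75 gaps of 50 kb or more, 26 in the left arm, 18 in the centre and 31 in the right arm, of which 13 reached 100 kb (4, 2 and 7). On chromosome II gaps of 50 kb or more took 35.2% of the length and on chromosome V 52.9%, against 20.0% on I, 18.5% on III and 25.4% on X. The longest on chromosome IV was 159.1 kb, 3860653 to 4019786 in the left arm. The second, 155.6 kb, lay in the same arm at 4920942 to 5076573. The next 3 were in the right arm, 12845840 to 12998953 (153.1 kb), 16181079 to 16312110 (131.0 kb) and 16049123 to 16169683 (120.6 kb). The last pair stood only a short peak cluster apart. Wholly inside the 75 gaps lay 2 replicate 1 peaks and 5 replicate 2 peaks. Few could lie there, since the series-wide list overlapped 504 of the 511 replicate 1 peaks and 308 of the 328 replicate 2 peaks. These counts are thus no separate support for the gaps.

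At the scale of 250 kb, 69 full bins held a median of 15 series-wide peaks (range 6 to 25). By part, the median was 16 in the left arm, 16 in the centre and 11.5 in the right arm. The left arm had 6 of the 10 bins with at least 20 peaks, and 4 of the 15 bins with fewer than 10. The right arm had 8 of those 15 low bins and 1 of the high ones. The standard deviation over bins was 5.64 peaks in the left arm (23 bins), 4.17 in the centre (24 bins) and 4.99 in the right arm (22 bins). That order was not shared by the replicates, where the left arm had the lowest standard deviation, 2.68 peaks in replicate 1 against 3.11 in the centre and 3.08 in the right arm, and 2.33 in replicate 2 against 3.81 and 2.36.

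The fullest bins lay in the left arm and at the right edge of the centre. Positions 4500001 to 4750000 held 25 series-wide, 10 replicate 1 and 5 replicate 2 peaks. Positions 11000001 to 11250000, which hold the widest peak, had 25, 13 and 13. Next came a tie at 24 series-wide peaks between 1750001 to 2000000, with 11 and 4 in the replicates, and 4250001 to 4500000, with 13 and 3. The emptiest were 5250001 to 5500000, with 6, 4 and 3 peaks, and 15250001 to 15500000, with 6, 4 and 5. Another 4 bins, all in the right arm, were tied at 7 series-wide peaks. They start at 12750001, 15750001, 16750001 and 17000001, with 4, 4, 4 and 5 replicate 1 peaks and 1, 4, 5 and 4 replicate 2 peaks. The bin at 15250001 had few peaks but strong ones, with a median score of 30.1 and 4 of 6 in both lists.

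The replicates were unevenly matched from bin to bin. Over the 69 full bins, Pearson's r between their counts was 0.413 and Spearman's rho 0.327, a description of neighbouring bins of 1 chromosome. Replicate 2 had no peak in 3 bins, which start at 3750001, 8500001 and 10500001, where replicate 1 had 3, 8 and 2 and the series-wide list 10, 16 and 9. It had its highest count, 13, in the bins that start at 8250001, 11000001 and 11250001, where replicate 1 had 13, 13 and 12. A full and an empty bin of replicate 2 stood side by side: the bin at 8250001 had 8 of 18 series-wide peaks in both lists, and the next, which holds the broad run without replicate 2 peaks, none of 16.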

How the data were processed

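The authors deposited 3 peak lists, with the first and last base and a score for each peak. Coordinates are those of WormBase WS220, per the file headers. The submitters' processing notes name BWA and the build ce10, with no version. The source column of the files names MACS for the replicate lists and MACS v2 for the series-wide list, so widths and scores were compared within a list only. The deposited score has no stated scale. The call threshold, the control and any pooling of replicates are not stated in the sources used, and the files hold no read counts, so depth is unknown.

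Peaks on column value IV were taken and placed by midpoint. Chromosome length was the furthest peak end over the 3 lists. Overlap meant at least 1 bp. Counts per 250 kb bin, divided at the edges of the 3 parts of equal length, were fitted with quasi-Poisson and quasi-binomial models with Pearson dispersion. Scores and widths (log2) were fitted with linear models clustered by bin. The 8 planned and 3 added tests were adjusted together by the Benjamini-Hochberg method. Neighbouring bins are not independent, which the models do not allow for. The tests concern positions within these lists, and not the spread between cultures. The peaks and comparisons were chosen with earlier results of these data known. Named regions were the 10 peaks of highest score found in both replicates, the 3 widest peaks, the 5 longest stretches without a peak, and the 3 fullest and 3 emptiest full bins (ties by position); any other, the tied bins included, was chosen after its values were seen. No genome of WS220 was used here, so no sequence is shown. The models were tested on simulated data. The simulated bins were independent and their counts less dispersed than those of the main density fits. How the intervals behave on the real counts was thus not tested. Python 3.11.15, numpy 2.4.6, pandas 2.3.3, scipy 1.17.1, statsmodels 0.14.6 and matplotlib 3.10.9 were used.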

Additional observations from a re-analysis of the deposited data

How the results depend on the processing

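Each result was recomputed with other bin sizes, score limits, overlap rules, boundaries or lists, judged by unadjusted p. The series-wide list could not be rebuilt from 1 replicate. For densities, scores and widths, a fit without 1 replicate used the separate list of the other. Those lists held 511 (replicate 1) and 328 (replicate 2) chromosome IV peaks, against 1013. For support, it used overlap with the other list alone. Of 74 recomputed values, 61 kept their direction and their side of the threshold. Bin size alone changes only the interval and p of these fits, so values with other bin sizes kept their direction by design. Only the ratio of left to right arm and the left-arm-to-centre ratio against other autosomes had passed at first. For the other results, keeping the side meant still not passing, so the tally is no measure of their strength. The centre-to-arm ratio of chromosome IV passed with the middle 50% as the centre (1.22), and its ratio to that of the other autosomes passed with peaks closer than 1 kb merged (0.807). The ratio of left to right arm lost its call with 500 kb bins (1.28, p = 0.0505, n = 24 bins) and among peaks in both replicates (1.03). It also lost it without replicate 2 (1.18, p = 0.172, n = 48 bins) and turned direction without replicate 1 (0.904). The left-arm-to-centre ratio against other autosomes lost its call among peaks in both replicates (1.36) and without replicate 1 (1.05). It kept it without replicate 2 (1.43) and was highest with the middle 50% as the centre (1.49). Values that never passed and changed sign were the right-arm-to-centre ratio against other autosomes with the middle 50% (0.995), the log2 score difference with the middle 50% (-0.0498) and without replicate 1 (-0.117, against 0.0920 without replicate 2), the odds of support against other chromosomes (0.988 without replicate 1, 1.03 without replicate 2) and those of centre against arms (0.784 without replicate 1, 1.03 without replicate 2). For all of them the cause was not tested. No paired analysis was possible because each result compares positions within peak lists, and none compares the ChIP group with the input group. Depth is unknown, so absence of a peak does not show absence of binding.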
